A study of Mus musculus with 30 samples.

Results

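Variable (V) and joining (J) segments are the gene pieces from which each T cell assembles its receptor. The segments described here were the gene symbols beginning with Trav, Traj, Trbv or Trbj that held 10 or more counts summed over a count table, and 7 of 237 such symbols did so in spleen CD4 and CD8 T cells. They were Trbv31, Trav14d-3-dv8, Trav16d-dv11, Trav13d-4, Traj27, Trav7d-4 and Trav8d-2. In thymus CD8 single-positive (SP) cells 2 of 237 did so, Trbv31 and Trav14d-3-dv8, and both were also among the 7 of the spleen. The 237 symbols were 128 Trav, 60 Traj, 35 Trbv and 14 Trbj, among 46095 symbols per table. The table of thymus double-positive and CD4 SP cells lists 21983 symbols, none of this kind, and its libraries were not used here.

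The study sequenced messenger RNA of T cells sorted from C57BL/6 mice with and without a T cell deletion of Prmt5, a protein arginine methyltransferase. CKO cells came from mice carrying a CD4-Cre transgene, which is driven by the Cd4 promoter and acts in developing T cells, and floxed Prmt5 (CD4-Cre+ PRMT5fl/fl), and WT cells came from wild type mice. There were 3 libraries each of spleen CD8 CKO, spleen CD8 WT, spleen CD4 CKO, spleen CD4 WT, thymus CD8 SP CKO and thymus CD8 SP WT cells. Spleen libraries with the same number in their titles are treated here as the same animal, which the titles do not state. No group was labelled as CD4-Cre alone, so Cre and loss of Prmt5 cannot be told apart, and neither the ages nor any pooling of animals is stated in the labels. Prmt5 was lower in CKO libraries, which checks the labels. Its level in CPM, that is counts scaled to the library total, was 29.1 to 41.3 CPM in CD8 CKO against 60.9 to 66.3 CPM in CD8 WT cells, 18.8 to 24.6 CPM in CD4 CKO against 43.5 to 44.9 CPM in CD4 WT cells, and 115 to 117 CPM in CKO against 134 to 149 CPM in WT thymus CD8 SP cells. Its log2 changes were -0.87 ± 0.12 in spleen CD8, -0.97 ± 0.10 in spleen CD4 and -0.31 ± 0.05 in thymus CD8 SP cells (SE), with adjusted p-values of 8.29e-04, 1.09e-04 and 0.0450 in edgeR's quasi-likelihood test. In thymus CD8 SP the adjusted p was 0.0541 to 0.164 with any 1 library left out, 0.0562 with a filter of 10 CPM and 0.0674 with the library number as a block.

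The alpha and beta chains of the receptor are built in the thymus by V(D)J recombination. The Rag1 and Rag2 proteins cut the DNA beside chosen segments, and end-joining proteins link a V segment to a J segment (alpha chain) or a V, a D and a J segment (beta chain). Beta chains are assembled first, before the double-positive stage, and alpha chains at that stage. V segments encode part of the contact with class I or class II major histocompatibility molecules, on which CD8 and CD4 T cells are selected, and in mice some V segments are used unequally by the 2 lineages. Trbv31 is unusual among beta V segments, since it lies beyond the constant genes in the opposite orientation and joins by inversion.

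The sequences of the segments that the values turn on were read from GENCODE M21 transcripts (build GRCm38). Trbv31, the segment with nearly all counts, is annotated on chromosome 6 from 41557691 to 41558452 on the minus strand, and the last 300 bases of its spliced coding sequence are given with the codon of the conserved cysteine before the junction in capitals:
Trbv31: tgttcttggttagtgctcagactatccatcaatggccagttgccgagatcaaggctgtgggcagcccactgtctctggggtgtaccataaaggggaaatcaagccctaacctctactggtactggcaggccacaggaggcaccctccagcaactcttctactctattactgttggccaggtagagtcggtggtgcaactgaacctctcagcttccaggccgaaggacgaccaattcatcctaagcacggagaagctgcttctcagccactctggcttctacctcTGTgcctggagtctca
Trav14d-3-dv8 lies on chromosome 14 from 53078452 to 53079045 on the plus strand, and its name records that it also serves the delta chain. It has near copies on the same strand, Trav14-3 from 53763173 to 53763694 and Trav14n-3 from 53370077 to 53370575. The last 150 bases of the 3 are given because reads must tell them apart, with the 8 positions at which any of them differs in capitals:
Trav14d-3-dv8: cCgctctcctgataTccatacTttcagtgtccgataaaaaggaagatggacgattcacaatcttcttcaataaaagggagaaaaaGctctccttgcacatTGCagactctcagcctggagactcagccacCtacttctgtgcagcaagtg
Trav14-3: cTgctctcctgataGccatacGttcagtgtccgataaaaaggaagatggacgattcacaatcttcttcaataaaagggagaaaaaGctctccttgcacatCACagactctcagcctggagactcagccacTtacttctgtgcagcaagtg
Trav14n-3: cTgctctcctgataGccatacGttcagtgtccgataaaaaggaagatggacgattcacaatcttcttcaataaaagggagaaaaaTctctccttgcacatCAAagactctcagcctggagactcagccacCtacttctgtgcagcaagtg
Over 280 compared bases Trav14d-3-dv8 differs from Trav14-3 at 8 positions (97.1% identity) and from Trav14n-3 at 9 (96.8% identity), so the counts of each are uncertain, although both copies were listed with 0 counts in both tables. Traj27, the only J segment past the minimum, lies on chromosome 14 from 54192303 to 54192361 on the plus strand, with the bases coding the Phe-Gly-Asp-Gly motif of J segments in capitals:
Traj27: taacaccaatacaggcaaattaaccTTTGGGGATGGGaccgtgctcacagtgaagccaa

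Most segments were barely counted. In spleen, 169 of the 237 symbols held 0 counts over 12 libraries and 61 held 1 to 9, against totals of 24729146 to 27192847 counts per library. In thymus CD8 SP, 208 held 0 counts over 6 libraries and 27 held 1 to 9, at totals of 28721963 to 35353441. A count of 0 in 1 library allows up to 3 counts, which is 0.111 CPM in the library of CD4 CKO animal 65. The 10-count minimum fell between Trav8d-2 with 11 counts and Traj38 with 9 in spleen, and between Trav14d-3-dv8 with 19 and Trav2 with 7 in thymus.

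The counts were spread unevenly along the 2 receptor loci. The tables also hold whole-locus symbols, Tcra and Tcrb, whose RefSeq spans on GRCm38 (chromosome 14 from 52427967 to 54224198, and chromosome 6 from 40891296 to 41558371) contain the RefSeq positions of all 237 segments. The GENCODE span of Trbv31 given above ends at 41558452, past the end of the Tcrb span. At Tcrb, the 48 plus-strand segments, among them all 14 Trbj, held 0 counts in both tables, as did the constant genes Trbc1 and Trbc2. The 1 minus-strand segment, Trbv31, which lies 9.34 kb beyond Trbc2, held 4923 counts in spleen and 3298 in thymus CD8 SP. At Tcra, 188 plus-strand segments shared 423 counts in spleen and 79 in thymus. All 5 Trav members carry the copy letter d in their names, as do 39 of the 128 Trav symbols. Those 39 held 255 of the 267 Trav counts in spleen, the 34 symbols with the copy letter n held 0, and the 55 with neither letter held 12. Up to and including Trav14d-3-dv8, 651 kb from the start of Tcra, 29 of 46 Trav symbols had a count in spleen, against 2 of the 82 beyond it, a division made after the values were seen. How reads over both a segment and its whole-locus symbol were assigned, and whether by strand, is not given in the sources used here, and its part in these zeros was not tested. Reads of Trbv31 and of the opposite strand of Tcrb at the same place therefore cannot be told apart with certainty.

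**Figure D1:**
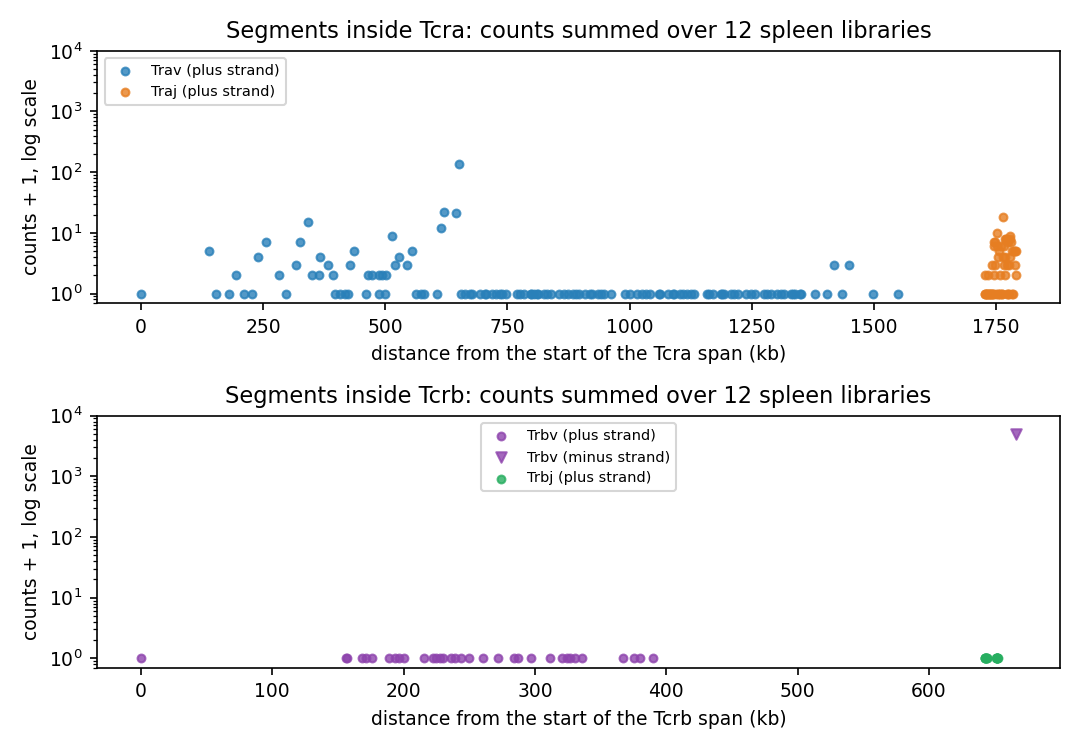
Counts of each segment summed over the 12 spleen libraries (vertical axis, counts + 1 on a log scale) against its distance from the start of the whole-locus span in kb, for Tcra (top) and Tcrb (bottom). Each mark is 1 segment, with triangles for the minus strand. Trbv31, at the far end of Tcrb, stands at 4923 counts above 48 segments at 0, and the counted Trav segments lie mostly in the first 651 kb of Tcra.

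The shares of each class that the V and J segments take therefore say little about receptor usage. Trbv31 made up 100% of the Trbv counts and Traj27 100% of the counts of Traj members, because neither class had a second member. The segments of the semi-invariant receptors of NKT cells (Trav11, Trav11d, Traj18, Trbv13-2, Trbv29, Trbv1) and of MAIT cells (Trav1, Traj33, Trbv19, Trbv13-3) were at 0 counts in every library of both tables, so these cells could not be followed by their segments.

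Trbv31 was about 4-fold lower in CD8 than in CD4 cells of the spleen. In WT mice it had 6.73, 5.94 and 6.49 CPM in CD8 cells, against 24.6, 25.3 and 23.3 CPM in CD4 cells of animals 67, 70 and 71. The 2 populations did not overlap, and the highest CD8 library lay far below the lowest CD4 library. The log2 fold change was -1.89 ± 0.11 (SE, 95% interval -2.12 to -1.65), a 3.70-fold lower level in CD8 cells, with an edgeR adjusted p of 6.99e-08. In CKO mice Trbv31 had 7.15, 5.10 and 6.65 CPM in CD8 cells, against 27.5, 22.6 and 27.9 CPM in CD4 cells of animals 65, 68 and 72. These again did not overlap, and all 6 animals of the 2 genotypes showed the same direction. The log2 fold change was -2.03 ± 0.15 (SE, 95% interval -2.38 to -1.68), a 4.09-fold lower level in CD8 cells, with an edgeR adjusted p of 2.74e-05.

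**Figure D2:**
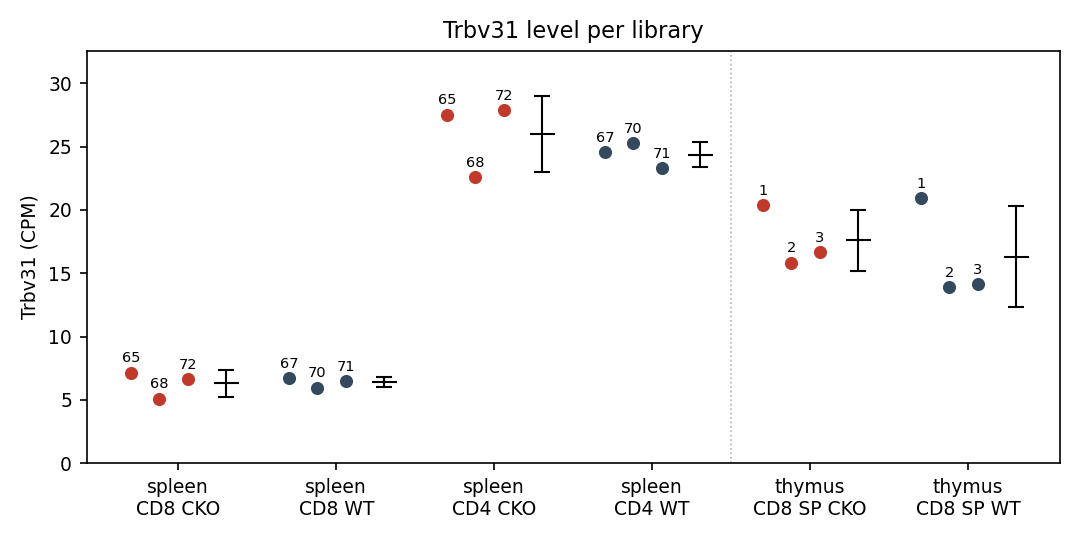
Trbv31 level in CPM for each library, with the animal or library number beside each point and bars for the mean and SD of 3 libraries, CKO in red and WT in dark grey. Spleen CD8 libraries lie between 5.10 and 7.15 CPM and spleen CD4 libraries between 22.6 and 27.9 CPM. Thymus CD8 SP libraries, from another table, are to the right of the dotted line.

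Of the 7 spleen members, 2 passed the filter on low counts in the WT comparison and 1 of them, Trbv31, was called, at a background of 31.9% of all genes called (16.5% lower in CD8). In the CKO comparison 1 passed and was called, Trbv31, at a background of 18.6% (10.3% lower in CD8). DESeq2 also called 1 member in each. In bulk samples, fewer cells using a segment and less RNA of it per cell cannot be told apart.

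No difference of this size was measured for the whole-locus beta symbol. Tcrb had 456 to 587 CPM in CD8 CKO and 498 to 554 CPM in CD8 WT cells, against 504 to 634 CPM in CD4 CKO and 486 to 549 CPM in CD4 WT cells. These ranges overlapped, and its log2 change in CD8 against CD4 cells was 0.04 ± 0.07 in WT (SE, 95% interval -0.10 to 0.18, edgeR adjusted p = 0.676) and -0.11 ± 0.11 in CKO (SE, 95% interval -0.35 to 0.13, edgeR adjusted p = 0.528). In CKO its adjusted p was 0.0413 with the animal as a block, and 0.0413 to 0.725 over all alternatives. Trbv31 made 1.22, 1.09 and 1.46 counts per 100 Tcrb counts in CD8 CKO cells and 1.21, 1.14 and 1.30 in CD8 WT cells. In CD4 CKO cells it made 4.34, 4.41 and 5.54, and in CD4 WT cells 4.55, 5.20 and 4.24. Relative to Tcrb, too, no CD8 library overlapped a CD4 library. Fitted with Tcrb counts as the offset, a setting added after seeing the data, the log2 fold change of Trbv31 was -1.93 in WT and -1.93 in CKO.

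**Figure D3:**
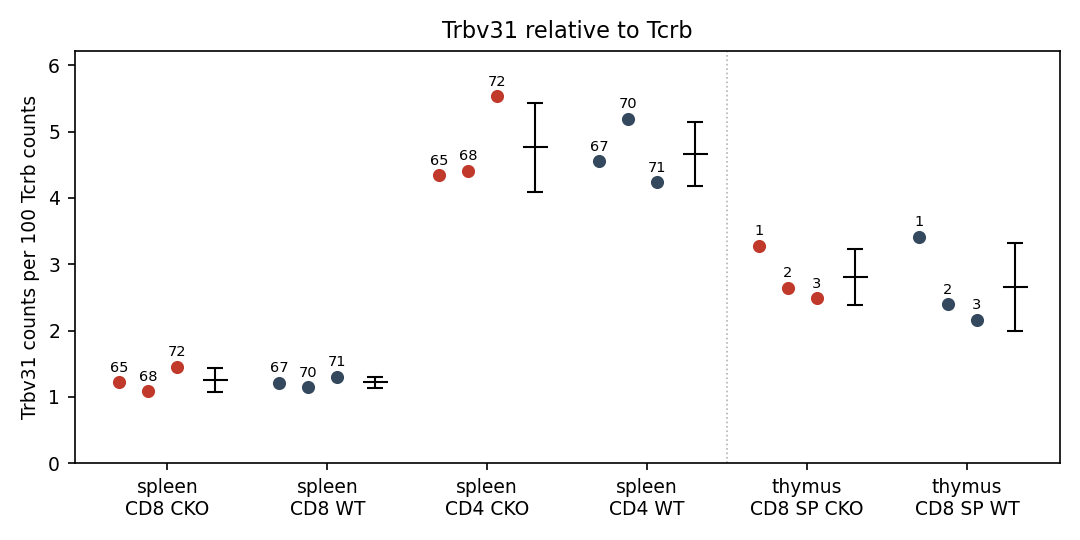
Trbv31 counts per 100 counts of Tcrb in each library, with the animal or library number beside each point and bars for the mean and SD of 3 libraries, CKO in red and WT in dark grey. Spleen CD8 libraries lie between 1.09 and 1.46 and spleen CD4 libraries between 4.24 and 5.54, while the thymus CD8 SP libraries on the right run from 2.17 to 3.41.

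The whole-locus alpha symbol did differ. Tcra was lower in CD8 cells, by a log2 change of -0.53 ± 0.09 in WT (edgeR adjusted p = 8.88e-04) and -0.60 ± 0.11 in CKO (edgeR adjusted p = 0.00426). Its levels averaged 252 ± 33.9 CPM in CD8 CKO and 297 ± 27.9 CPM in CD8 WT cells, against 386 ± 53.7 CPM in CD4 CKO and 441 ± 54.9 CPM in CD4 WT cells (SD, n = 3 each). The alpha constant gene Trac spans chromosome 14 from 54220521 to 54224206, almost wholly within the Tcra span. How reads over both were assigned is not given, and its part in the Trac counts was not tested. Trac, counted at 4 to 37 reads a library, had 11, 17 and 15 counts in CD8 WT cells, against 27, 28 and 37 in CD4 WT cells. Its log2 change there was -1.06 ± 0.37 (edgeR adjusted p = 0.0461), but the adjusted p was 0.0600 with the animal as a block, 0.0870 by DESeq2, 0.0804 with no filter and 0.106 to 0.190 with any 1 animal left out. In CKO, Trac had 32, 27 and 24 counts in CD8 cells, against 29, 19 and 29 in CD4 cells, with overlap and a log2 change of 0.11 ± 0.35 (edgeR adjusted p = 0.871).

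Trbv31 showed no detectable change between CKO and WT cells. Trbv31 averaged 6.30 ± 1.07 CPM in CD8 CKO and 6.39 ± 0.403 CPM in CD8 WT cells (SD, n = 3 each), with overlapping libraries. The log2 fold change was -0.05 ± 0.18 (SE), its 95% interval -0.43 to 0.34, and the edgeR adjusted p 0.899. In spleen CD4 cells it averaged 26.0 ± 2.97 CPM in CKO and 24.4 ± 1.003 CPM in WT (SD, n = 3 each), again with overlap. There the log2 fold change was 0.10 ± 0.10 (SE), its 95% interval -0.12 to 0.33, and the edgeR adjusted p 0.567. The intervals leave room for changes of these sizes but not for one as large as the difference between CD8 and CD4 cells.

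Trbv31 had 20.4, 15.8 and 16.6 CPM in thymus CD8 SP CKO libraries 1, 2 and 3, against 20.9, 13.9 and 14.1 CPM in WT libraries 1, 2 and 3. The genotypes overlapped, and library 1 was the highest of its group in both. The log2 fold change was 0.10 ± 0.15 (SE), its 95% interval -0.24 to 0.44, and the edgeR adjusted p 0.875. The difference between the CKO effects in spleen CD8 and CD4 cells was -0.15 ± 0.18 (SE) on the log2 scale, its 95% interval -0.54 to 0.24, and the edgeR adjusted p 0.847.

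edgeR called 0 members in each of these 4 comparisons, with 0 at an unadjusted p under 0.05 and 0 called by DESeq2. Members tested numbered 1 of 7 in spleen CD8, 2 of 7 in spleen CD4, 1 of 2 in thymus CD8 SP and 2 of 7 for the difference of effects. The background of all genes called was 16.1% in spleen CD8, 14.2% in spleen CD4, 0.114% in thymus CD8 SP and 2.56% for the difference of effects.

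**Figure D4:**
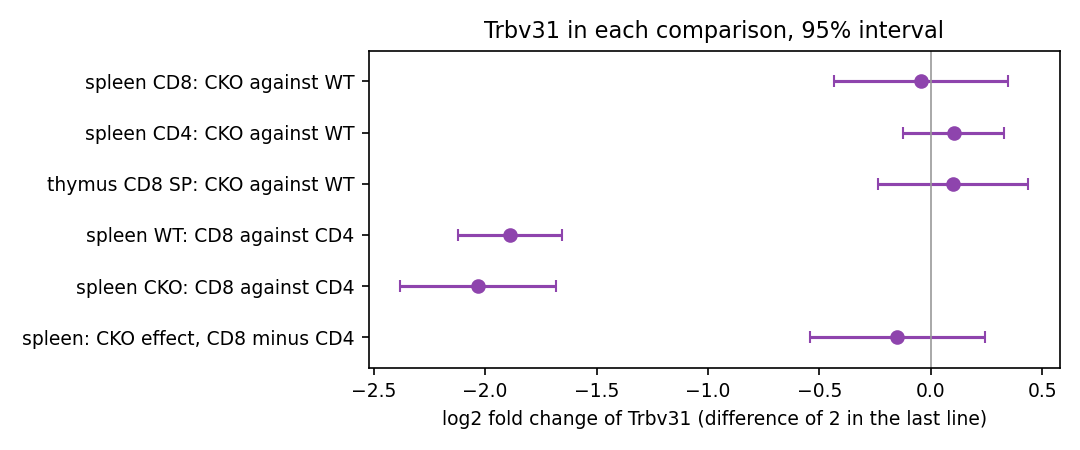
Log2 fold change of Trbv31 in 5 comparisons, and the difference of the CKO effects in the bottom line, with points for the edgeR estimate and bars for its 95% interval. Both comparisons of CD8 with CD4 cells lie near -2, at -1.89 and -2.03, and the other 4 intervals include 0.

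Side by side, thymus CD8 SP cells had Trbv31 at 17.6 ± 2.42 CPM in CKO and 16.3 ± 3.99 CPM in WT (SD, n = 3 each), between the levels of spleen CD8 and spleen CD4 cells. Per 100 Tcrb counts the order was the same, with 2.81 ± 0.419 in CKO and 2.66 ± 0.664 in WT thymus CD8 SP cells. The tissues come from different tables, and the labels do not link their animals, so this order was not tested. The thymus CD8 SP libraries also held Rag1, the recombinase gene of the double-positive stage, at 790 to 905 CPM in CKO and 703 to 785 CPM in WT, and Cd4 at 44.8 to 55.8 CPM in CKO and 36.4 to 38.7 CPM in WT. The labelled SP stage thus came with transcripts listed here as double-positive stage markers. Those 5 markers summed to 1883 to 2095 CPM in CKO and 1600 to 1865 CPM in WT. Which cells held these transcripts, and the part of those cells in the Trbv31 level, was not tested.

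Trav14d-3-dv8 was the most counted alpha segment, at 136 counts in spleen. It had 2, 3 and 2 counts in CD8 CKO cells and 8, 12 and 19 in CD4 CKO cells of animals 65, 68 and 72. In WT it had 5, 7 and 15 counts in CD8 cells and 23, 25 and 15 in CD4 cells of animals 67, 70 and 71. CD8 libraries were lower than CD4 libraries in every CKO animal, and in 2 of the 3 WT animals, since both libraries of animal 71 had 15 counts. The CD8 library of animal 71 also held Cd4 at 13.4 CPM, the highest of the CD8 libraries, and the part of CD4 cells in its count was not tested. The log2 fold change of CD8 over CD4 cells was -1.19 ± 0.50 (SE) in WT with an edgeR adjusted p of 0.0890, which did not pass. Without animal 71 it was -1.97 and passed, with an adjusted p of 0.0309 in a range of 0.0309 to 0.477 over all alternatives. The change was smaller without animal 67 (-0.81), with Tcra counts as the offset (-0.66) and with the summed Trav members as the offset (-0.47), and passed in none of these. In CKO the segment did not pass the filter on low counts. With no filter its log2 fold change there was -2.43 (edgeR adjusted p = 0.0470), with all 12 spleen libraries in the fit -2.42 (edgeR adjusted p = 0.0120), and without animal 65, where it passed the filter, -2.60 (edgeR adjusted p = 0.0560).

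**Figure D5:**
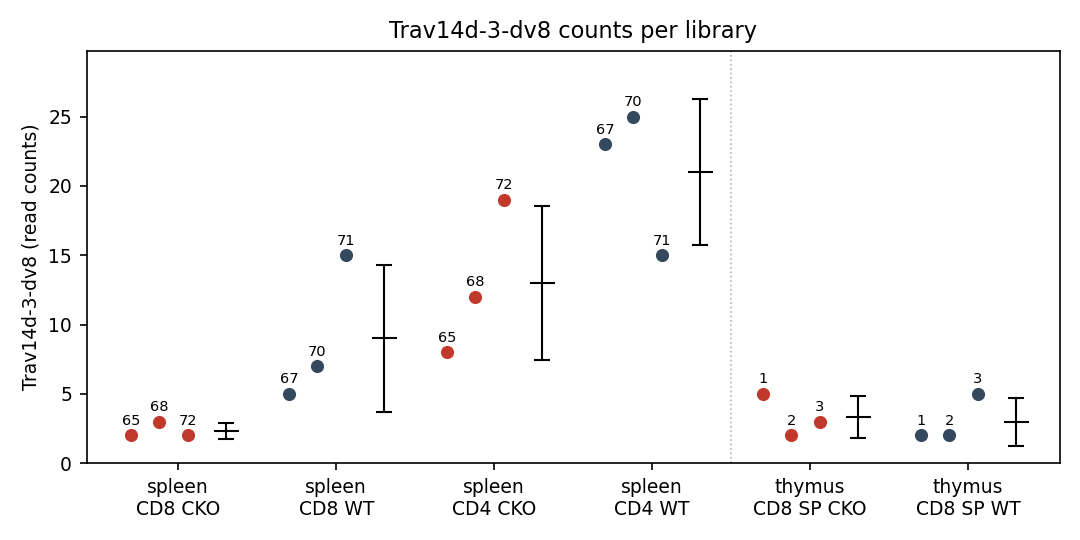
Read counts of Trav14d-3-dv8 in each library, with the animal or library number beside each point and bars for the mean and SD of 3 libraries, CKO in red and WT in dark grey. Spleen CD4 libraries run from 8 to 25 counts, CD8 CKO libraries stay at 2 or 3, and CD8 WT animal 71 reaches 15.

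Between genotypes Trav14d-3-dv8 did not pass. In spleen CD4 cells its log2 fold change in CKO was -0.64 ± 0.48 (SE), with a 95% interval of -1.69 to 0.41 and an edgeR adjusted p of 0.425. It was -0.000954 with the summed Trav members as the offset, -0.35 without CKO animal 65 and -1.05 without CKO animal 72, and passed under no alternative. The difference of the CKO effects was -1.24 ± 0.83 (SE, edgeR adjusted p = 0.620). That value was -0.51 with the summed Trav members as the offset, -0.45 without WT animal 71 and -0.75 without CKO animal 72, and ran to -1.61 with 1 animal left out, again passing nowhere. In thymus CD8 SP it had 5, 2 and 3 counts in CKO and 2, 2 and 5 in WT, which did not pass the filter. Nor did its counts in spleen CD8 cells, 2, 3 and 2 in CKO against 5, 7 and 15 in WT. These did not overlap, but the share of all genes that separate in this way is not given.

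Among the counts of the 5 Trav members pooled over 3 libraries, Trav14d-3-dv8 took 7 of 19 in CD8 CKO cells (36.8%, exact Clopper-Pearson 95% interval 16.3 to 61.6%) and 27 of 49 in CD8 WT cells (55.1%, 40.2 to 69.3%). It took 39 of 51 in CD4 CKO cells (76.5%, 62.5 to 87.2%) and 63 of 83 in CD4 WT cells (75.9%, 65.3 to 84.6%). Those intervals cover counting error only. For this segment the intervals of CKO and WT overlapped within each population. For Trav8d-2 they did not in CD8 cells. There it took 6 of 19 counts in CKO (31.6%, 12.6 to 56.6%) and 1 of 49 in WT (2.04%, 0.0517 to 10.9%). Trav8d-2 passed the minimum on summed counts only through CD8 CKO, the group where it was highest. Its separation is thus partly built into its selection and was not tested. It was also picked out from 5 Trav members in each spleen population. The inverse Simpson index, the effective number of segments in use, was 3.50 in CD8 CKO, 2.56 in CD8 WT, 1.63 in CD4 CKO and 1.68 in CD4 WT cells. It was computed over 5 segments and few counts, so it measures these symbols and not the diversity of the receptors. Its value in CD8 CKO cells rests in part on the same 6 counts of Trav8d-2.

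The other members had single-digit counts in every library. Trav16d-dv11, whose name also records use by the delta chain, had 0, 0 and 3 counts in CD8 CKO and 8, 0 and 5 in CD8 WT cells, against 0, 1 and 0 in CD4 CKO and 2, 1 and 1 in CD4 WT cells. It passed the minimum only through the group where it was highest, CD8 WT. Its higher count there is thus partly built into its selection and was not tested. Trav8d-2 had 2, 1 and 3 counts in CD8 CKO and 1, 0 and 0 in CD8 WT cells. In CD4 cells it had 0, 1 and 0 counts in CKO and 1, 0 and 2 in WT. It, too, passed the minimum only through the group where it was highest, CD8 CKO. Trav13d-4 had 0 to 5 counts a library, Trav7d-4 0 to 4 and Traj27 0 to 6. Trav7d-4 and Traj27 likewise passed the minimum only through the group where each was highest, CD4 CKO for Trav7d-4 and CD4 WT for Traj27. None of the 5 members in this paragraph passed the filter in any comparison.

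Summed over all 128 Trav symbols, members or not, the alpha V segments had 9, 9 and 9 counts in CD8 CKO and 18, 14 and 29 in CD8 WT cells, against 27, 17 and 30 in CD4 CKO and 33, 35 and 37 in CD4 WT cells. In each spleen population the CKO libraries lay below the WT libraries without overlap. In CD4 cells the gap was small, from 30 counts (1.21 CPM) in CKO animal 72 to 33 counts (1.27 CPM) in WT animal 67. The order was the opposite in thymus CD8 SP cells, with 14, 10 and 11 counts (0.396, 0.307 and 0.383 CPM) in CKO against 6, 10 and 7 counts (0.182, 0.290 and 0.238 CPM) in WT, which did not overlap in CPM. Summed over all 60 Traj symbols, the alpha J segments had 7, 13 and 7 counts in CD8 CKO and 12, 4 and 14 in CD8 WT cells, against 12, 17 and 9 in CD4 CKO and 23, 27 and 11 in CD4 WT cells, with overlap. Sums this small were given no test. The share of all genes whose libraries separate in this way is not given, so these separations alone do not establish a change. Tcra, at 5922 to 13076 counts a spleen library, had a log2 change in CKO of -0.26 ± 0.10 in spleen CD8 (edgeR adjusted p = 0.0912) and -0.19 ± 0.10 in spleen CD4 cells (edgeR adjusted p = 0.275). In spleen CD8 it passed with no filter (adjusted p = 0.0115) and without CKO animal 65 (adjusted p = 0.0147), in a range of 0.0115 to 0.277 over all alternatives. Trac went the other way there, with 32, 27 and 24 counts in CD8 CKO against 11, 17 and 15 in CD8 WT cells, without overlap, and a log2 change of 0.95 ± 0.38 that did not pass (edgeR adjusted p = 0.116). The spans of Trac and Tcra overlap, and how reads over both were assigned is not given.

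Trdc, the delta constant gene, which lies within the span of Tcra, rose in spleen CD8 CKO cells. It had 19, 11 and 20 counts in CD8 CKO against 0, 4 and 1 in CD8 WT cells, without overlap. The log2 fold change was 3.24 ± 0.76 (SE, edgeR adjusted p = 0.0151), and it missed the threshold without WT animal 67 (adjusted p = 0.0612), WT animal 71 (0.0749) or CKO animal 72 (0.0600), in a range of 0.0151 to 0.0749 over animals left out and all animals. Sums over several lists of cell markers also differed in the same libraries. The 4 B cell markers overlapped, at 19.3 to 25.1 CPM in CD8 CKO and 17.2 to 24.4 CPM in CD8 WT cells. The 4 myeloid markers summed to 23.9 to 43.3 CPM in CD8 CKO against 9.67 to 16.1 CPM in CD8 WT cells. Among them Itgam had 11.8 to 20.6 CPM in CKO against 2.91 to 6.17 CPM in WT. The 3 NK markers summed to 78.1 to 132 CPM in CD8 CKO against 17.8 to 27.7 CPM in CD8 WT cells. Klrk1 made most of that sum, at 68.8 to 118 CPM in CKO against 14.4 to 23.9 CPM in WT. The 5 gamma delta T cell markers, Trdc included and with Tcrg-C1 and Tcrg-C4 at 0, summed to 18.9 to 25.1 CPM in CD8 CKO against 2.38 to 2.87 CPM in CD8 WT cells. Tcrg-C2 made most of that sum, at 16.9 to 24.2 CPM in CKO against 2.07 to 2.83 CPM in WT. The 5 effector markers, Klrg1 among them, summed to 199 to 464 CPM in CD8 CKO against 29.6 to 100 CPM in CD8 WT cells. Which cells carried these transcripts, and the part of those cells in the alpha segment sums, was not tested. In CD4 cells, the myeloid markers summed to 68.5 to 169 CPM in CKO against 40.6 to 59.0 CPM in WT, and the effector markers to 45.1 to 79.4 CPM in CKO against 19.3 to 28.1 CPM in WT. The gamma delta markers there summed to 4.29 to 6.71 CPM in CKO against 2.63 to 3.73 CPM in WT. The NK markers in CD4 cells overlapped, at 14.8 to 28.5 CPM in CKO and 18.1 to 23.8 CPM in WT. The 3 genes listed for invariant NKT cells summed to 47.2 to 58.3 CPM in CD4 CKO against 68.1 to 75.3 CPM in CD4 WT cells. Most of that sum was Cd1d1, which is also on the double-positive list. Cd1d1 overlapped between genotypes, at 40.9 to 50.9 CPM in CKO and 41.1 to 45.6 CPM in WT. Klrb1c had 3.83 to 5.34 CPM in CD4 CKO against 9.46 to 12.3 CPM in CD4 WT cells. Zbtb16, the transcription factor gene of NKT cells, fell to 2.41 to 2.71 CPM in CD4 CKO, against 16.2 to 18.7 CPM in CD4 WT cells (log2 change -2.73 ± 0.16, edgeR adjusted p = 1.67e-06). The part of these cells in the CD4 segment sums was not tested either. The lineage markers followed the labels, and the T cell markers were present in every group. In CD4 cells the T cell markers summed to 2086 to 2164 CPM in CKO against 1747 to 1928 CPM in WT, while in CD8 cells the genotypes overlapped. Lck had 703 to 765 CPM in CD4 CKO against 380 to 437 CPM in CD4 WT cells. It had 710 to 765 CPM in CD8 CKO against 389 to 464 CPM in CD8 WT cells. Cd8a had 1159 to 1501 CPM in CD8 CKO and 1077 to 1219 CPM in CD8 WT cells, against 3.40 to 5.38 CPM in CD4 CKO and 2.31 to 4.61 CPM in CD4 WT cells. Cd8b1 in CD4 cells had 15.7 to 16.7 CPM in CKO against 8.49 to 9.69 CPM in WT.

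Of 34 genes that assemble, transcribe or accompany the receptor, 29 were tested in spleen CD8 cells, and 4 rose and 4 fell in CKO, at a background of 9.83% of all genes called higher and 6.22% lower. Among 12 tested recombination genes, 2 rose, Prkdc (log2 change 0.50 ± 0.07), the catalytic subunit of DNA-dependent protein kinase in end joining, and Hmgb2 (0.47 ± 0.10), a DNA-bending protein that assists Rag1 and Rag2. Their median log2 change was -0.00115, against -0.0125 over all genes. Among 10 transcription factor genes that act at the receptor loci, Tcf3 rose (0.24 ± 0.07), and Lef1 (-0.45 ± 0.07), Myb (-0.47 ± 0.12), Tcf7 (-0.38 ± 0.08) and Ikzf1 (-0.21 ± 0.06) fell. With 1 library left out, the call ended in 4 of 6 cases for Ikzf1 (adjusted p up to 0.141), in 3 for Tcf3 (up to 0.163) and in 2 for Myb (up to 0.0913). Their median log2 change was -0.14. Trdc was the only one of 7 tested chain and partner genes to change. Without WT animal 71 or without CKO animal 72, 4 genes of the 34 were called in place of 8. Lef1 and Tcf7 also belong to the naive cell markers, which summed to 2185 to 2516 CPM in CD8 CKO against 3083 to 3295 CPM in CD8 WT cells.

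In spleen CD4 cells 1 of 28 tested genes changed in CKO, Prkdc, which rose by a log2 of 0.59 ± 0.08, at a background of 8.53% higher and 5.63% lower, and 2 were called by DESeq2, with no filter, without WT animal 70 or without CKO animal 72. In thymus CD8 SP cells edgeR called 0 of 31, at a background of 0.0335% higher and 0.0805% lower. There 9 had an unadjusted p under 0.05, DESeq2 called 4, and 5 were called with no filter. The median log2 change of the tested genes was -0.0809 in spleen CD4 and 0.0550 in thymus CD8 SP cells, against -0.00570 and -0.00244 over all genes. The CKO effect differed between spleen CD8 and CD4 cells for 1 of 29, Lef1 (-0.41 ± 0.10, edgeR adjusted p = 0.0351), at a background of 1.81% higher and 0.749% lower. That count was 4 with the animal as a block and 2 with no filter or without CKO animal 65, and it was 0 without WT animal 67, 70 or 71 or CKO animal 68 or 72.

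Between the lineages, in WT, 6 of 28 were higher and 8 lower in CD8 than in CD4 cells, at a background of 15.3% higher and 16.5% lower. In CKO 3 of 29 were higher and 9 lower, at a background of 8.29% and 10.3%. Called genes numbered 9 in place of 14 in WT without animal 70, and in CKO 7 without animal 68 and 5 without animal 72, in place of 12. The median log2 change was 0.0320 in WT and -0.0154 in CKO, against 0.00914 and -8.11e-04 over all genes. In WT the lower ones included Runx1 (-1.19 ± 0.08) and Gata3 (-1.14 ± 0.07), factors that bind receptor gene enhancers, Lig4 (-0.87 ± 0.15), the ligase of end joining, and Trat1 (-2.01 ± 0.07), an adaptor that associates with the receptor. The higher ones included Xrcc5 (0.25 ± 0.07) and Xrcc6 (0.25 ± 0.07), the Ku subunits that hold broken ends, Cd3d (0.35 ± 0.07), a receptor subunit, and Myb (0.58 ± 0.09). The calls of Xrcc5 and Xrcc6 ended without animal 67 and without animal 70, at adjusted p-values up to 0.164 for Xrcc5 and 0.109 for Xrcc6, and that of Xrcc6 also with all 12 spleen libraries in the fit.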

How the data were processed

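The values are raw read counts per gene symbol, deposited by the authors in tables of spleen CD4 and CD8 cells, thymus CD8 SP cells, and thymus double-positive and CD4 SP cells. Per the labels' protocols, the library kit selects poly(A) RNA and marks the strand. Per the submitters' processing notes, the reads were handled with HISAT2 and HTSeq on GRCm38. Tool versions, annotation, strand setting and handling of overlapping features: not given in the sources used here. Groups and library numbers, called animal numbers for spleen, were taken from sample titles. Members had 10 or more counts summed over a table. CPM and shares of class counts were computed from the counts. Positions and sequences were taken from GENCODE M21 and RefSeq GRCm38.p6, matched by symbol or gene ID.

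Each comparison was fitted across all genes with edgeR 4.0.16 in R 4.3.3 (filterByExpr, TMM, quasi-likelihood test, Benjamini-Hochberg adjustment, 0.05), on the libraries compared, with 12 libraries for the difference of effects. The SE was obtained from the log2 fold change and its F statistic (their quotient after taking the root of F). The fit was tested on simulated data. P-values measure the spread between libraries of a group. In the main fits of CD8 against CD4 cells and of the difference of effects, libraries of the same animal entered as independent. The animal as a block was an alternative. For thymus CD8 SP the labels do not say whether the library numbers are animals. Members and gene lists were chosen with earlier results of these data known. Named are called segments, the leading segments of each class, the NKT and MAIT segments, Prmt5 and the constant genes. The alternatives used DESeq2 1.42.0, DESeq2 size factors in edgeR, no filter, 10 CPM in 3 libraries, 100 counts per segment, class sums or whole-locus counts as offset, each library left out, all 12 spleen libraries, and the replicate number as a block. Spleen CD4 and CD8 libraries with the same number were taken to come from the same animal, which their titles do not state. Correlations of their deviations were 0.0989 to 0.317, against -0.187 to 0.0109 for different numbers. Spleen CKO and WT animals share no numbers.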

Additional observations from a re-analysis of the deposited data

How the results depend on the processing

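The lower level of Trbv31 in CD8 than in CD4 cells passed under every alternative run, at log2 fold changes of -1.94 to -1.81 in WT and -2.09 to -1.93 in CKO, with adjusted p-values of at most 3.17e-05 and 0.00590. The count of segments called was 2 in place of 1 in WT without animal 71, with a range of 1 to 2 over animals left out. In CKO it was 2 in place of 1 with no filter and with all 12 spleen libraries, and Trav14d-3-dv8 was the added segment each time. Trbv31 in CKO against WT, which was never called, changed sign in spleen CD8 with whole-locus counts as offset (0.039), and ran from -0.13 to 0.076 with libraries left out. In thymus CD8 SP it ran from -0.016 to 0.32 with libraries left out, and the difference of the spleen effects was 0.0078 with the whole-locus offset. Uncalled Tcrb and Tcra values also changed sign with 1 library left out. Tcrb ran from -0.023 to 0.13 in spleen CD4, from -0.022 to 0.064 in thymus and from -0.00052 to 0.10 in WT CD8 against CD4. Tcra ran from -0.12 to 0.053 in thymus and from -0.12 to 0.012 for the difference of effects. The causes were not tested. With the animal as a block Trbv31 stood at -1.89 in WT, -2.04 in CKO and -0.15 for the difference of effects, and the block changed the calls of Tcrb in CKO and Trac in WT and raised the count of assembly genes for the difference of effects to 4. Over 41 called values of Prmt5 and the assembly genes, 56 of 472 alternatives missed the threshold and 0 changed sign. That total includes settings that could not test these genes. The minimum of 100 counts per segment repeats the main fit for every gene, and the whole-locus offset leaves the offsets of Prmt5 and the assembly genes unchanged. In thymus CD8 SP the numbers link CKO and WT libraries by number only (correlations 0.0529 to 0.127, against -0.0974 to 0.00645 for other numbers), and with that block Trbv31 had 0.11 and 0 segments were called. No paired analysis was possible between spleen CKO and WT because they share no numbers. The filter of 10 CPM removed Trbv31 from CKO against WT in spleen CD8, and class sums as offset gave no value for Trbv31 or Traj27, which are each the whole class. At 100 or more counts, Trbv31 and Trav14d-3-dv8 remained in spleen and Trbv31 in thymus. Positional groups had too few members for any alternative. Totals per library were at least 24729146 counts. Counts given to whole-locus symbols are not divided among segments.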
